A study of Mus musculus with 8 samples.

Results

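The genes described here are 10 transcripts that mark monocytes and red pulp macrophages: the lysozymes Lyz1 and Lyz2, the receptors Csf1r and Adgre1, the complement subunits C1qa, C1qb and C1qc, the endosomal glycoprotein Cd68, the adhesion molecule Vcam1 and the secreted protein Cd5l. They were chosen by name out of 20284 genes that the arrays measured with a named probe, and a probe was assigned to a member when its RefSeq accession belonged to that symbol. Of the 10 members, 9 had a probe (13 probes in all), and no probe was assigned to Cd68. The RNA came from mouse spleen NK cells that were separated magnetically and then sorted on the ChAT-eGFP reporter, a fluorescent protein that marks cells expressing choline acetyltransferase. There were 4 ChAT_positive arrays (reporter-expressing NK cells) and 4 ChAT_negative arrays (NK cells of the same sort without the reporter), each hybridised with RNA of cells pooled from 2 to 4 mice, and both groups came from animals with the reporter. Strain, sex and age are not given in the sources used here.

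Monocytes circulate and enter tissues, whereas red pulp macrophages reside in the spleen, where they take up aged red cells and recycle their iron. Both depend on signalling through the receptor that Csf1r encodes, and both are rich in lysosomal and antimicrobial proteins. Neither is an NK cell. Sorted NK cells can hold some myeloid cells, and an array of pooled cells cannot tell fewer cells of a type from less RNA per cell.

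Between 50.2% and 63.2% of spots per array were well above background. Chat, the gene behind the sort, had a log2 signal of 3.75 ± 0.25 in ChAT_positive and 2.65 ± 0.34 in ChAT_negative cells (SD, n = 4 each). The NK receptor genes Klrb1c and Ncr1 were well above background on all 8 arrays, at 1.79 ± 0.16 and 2.93 ± 0.48 in ChAT_positive cells and at 3.39 ± 0.17 and 3.59 ± 0.20 in ChAT_negative cells. Each reporter group was hybridised on a separate slide, so differences between slides and between groups cannot be told apart.

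In a fit without the replicate number as a block, limma called no member different between the reporter groups. That result depends on the model: with the block, limma called 3 members lower and 1 higher, and 2346 of 13608 genes. Whether the numbers pair the samples is not settled by these data, so the fit without the block is the one given. Here and below a log2 signal is the log2 processed intensity minus the 75th percentile of its array, and a member was tested when a probe of it rose clearly over background (Agilent's flag for spots well above background) on 4 or more of the 8 arrays. Of the 9 members with a probe, 7 passed that filter and C1qc and Cd5l did not. Of the 7, limma called 0 higher and 0 lower in ChAT_positive cells at an adjusted p under 0.05, over all 13608 genes tested, of which 5.95% were called, 2.81% higher and 3.15% lower. Before adjustment, Adgre1 (higher) and C1qa (lower) had p under 0.05, as did 24.8% of all genes. The groups overlapped for all 7 tested members, while they did not for 15.5% of all genes. The median log2 fold change (ChAT_positive minus ChAT_negative) was -0.29 over the 7 and 0.025 over all genes tested. Several members shared a low pair of arrays: in both groups, the array numbered 2 held less lysozyme and Adgre1 signal than its 3 companions. This trait was not particular to the members. Array 2 was lowest in both groups for 13.3% of all genes, for 8 of 8 tested platelet markers and 7 of 7 basophil and mast cell markers, and for 0 of 12 NK cell markers. Among lists closer to the members, the counts were 8 of 14 monocyte, 4 of 11 red pulp macrophage and 9 of 22 lysosome genes. Neutrophil markers had 8 of 11, myeloid transcription factors 0 of 9 and marginal zone macrophage genes 0 of 3.

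**Figure D1:**
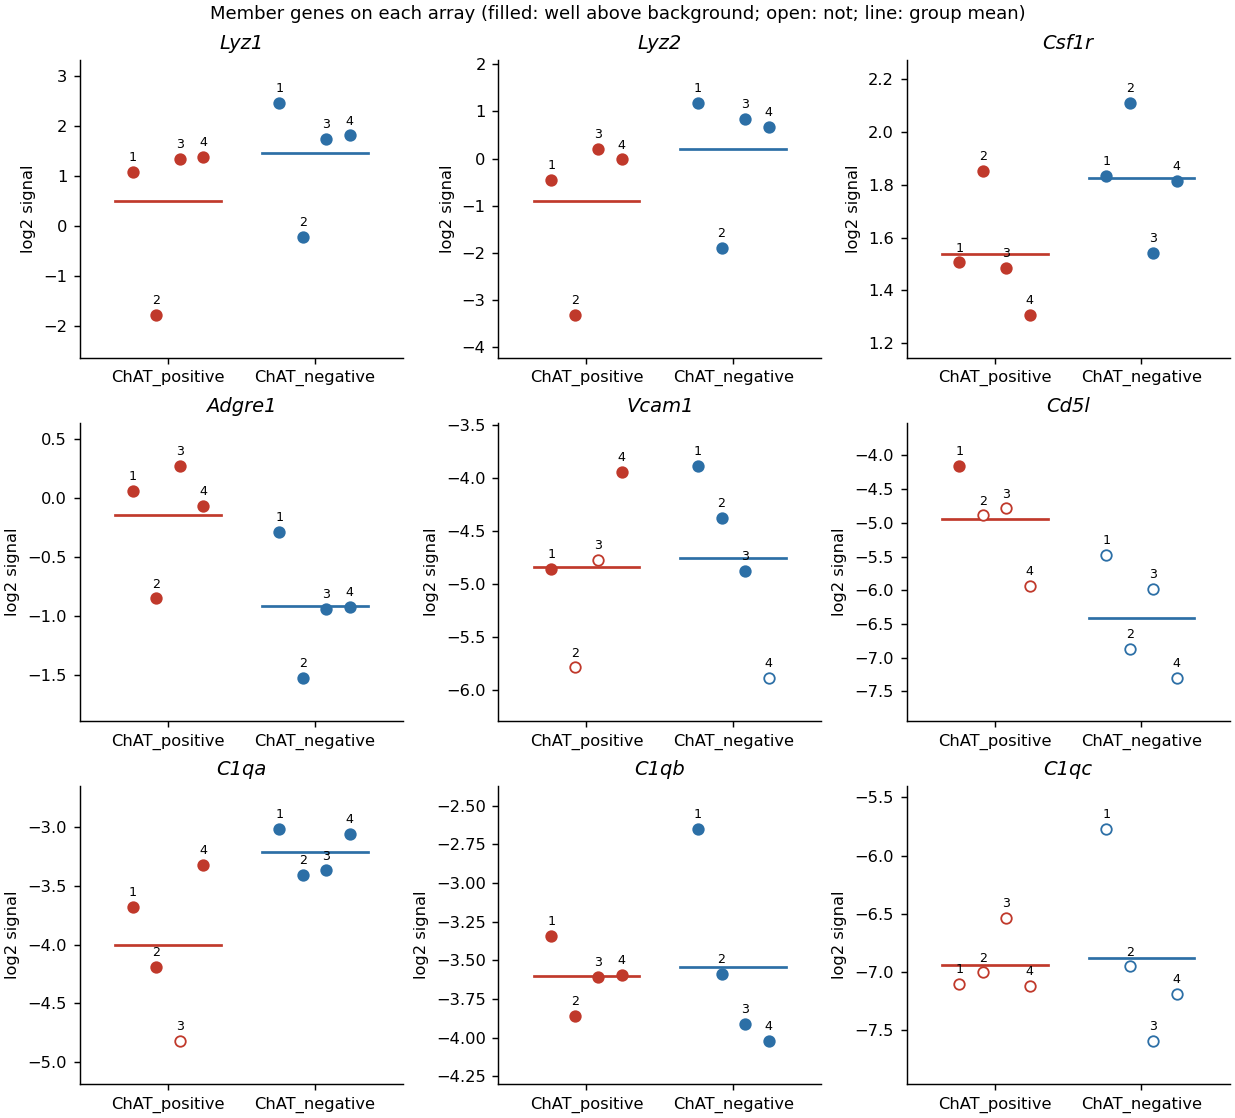
Log2 signal (y axis, scaled to each array's 75th percentile) of 9 member genes in 4 ChAT_positive (red, left) and 4 ChAT_negative arrays (blue, right), each point labelled with its array number. Filled points are well above background, open points are not, and lines are group means. The arrays numbered 2 are the lowest of both groups for Lyz1, Lyz2 and Adgre1, and every C1qc point is open.

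The lysozymes digest bacterial cell walls. Lyz2 is the form of macrophages, monocytes and neutrophils, and Lyz1 is its close copy, known for Paneth cells of the gut. The genes neighbour each other on chromosome 10, with 0 genes starting between them in the RefSeq table, and each was assigned 1 probe. The 250 bases before each gene's start are shown because the signals of these copies followed each other over the 8 arrays, with a Pearson correlation of 0.992 given as a description. They come from RefSeq on build GRCm38.p6, minus strand, written 5′ to 3′, with capitals marking the match to the C/EBP-type pattern TTNNGNAA (C/EBP proteins are myeloid transcription factors). The Lyz1 window is chr10:117292869-117293118 and the Lyz2 window is chr10:117282273-117282522.
Lyz1: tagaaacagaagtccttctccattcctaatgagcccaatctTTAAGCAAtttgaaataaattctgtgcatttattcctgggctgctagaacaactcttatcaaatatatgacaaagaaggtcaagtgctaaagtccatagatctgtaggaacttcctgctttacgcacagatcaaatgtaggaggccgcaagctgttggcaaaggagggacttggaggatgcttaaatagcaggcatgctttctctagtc
Lyz2: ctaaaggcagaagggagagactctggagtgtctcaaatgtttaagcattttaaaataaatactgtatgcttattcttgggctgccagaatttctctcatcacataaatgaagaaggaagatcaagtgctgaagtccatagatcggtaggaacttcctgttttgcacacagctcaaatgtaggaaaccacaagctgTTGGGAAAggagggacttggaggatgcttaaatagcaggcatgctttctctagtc
Aligned, these windows shared 200 of 248 bases (80.6%). The pattern occurred once in each, as printed and with both strands searched, starting at position -209 of Lyz1 and -55 of Lyz2. The motif GAGGAA, bound by the myeloid factor PU.1, was in neither window on either strand. Over 32851 windows of this length, 36.8% held the first pattern and 23.3% the other, so a match is a description only. Since the genes are close copies, how far each probe reads the other gene is uncertain here.

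Lyz2 had a log2 signal of -0.45, -3.32, 0.20 and -0.018 on ChAT_positive arrays 1 to 4, against 1.19, -1.90, 0.84 and 0.66 on ChAT_negative arrays 1 to 4. In each group array 2 lay far below the other arrays, and the ranges of the groups overlapped. The means were -0.90 ± 1.64 in ChAT_positive and 0.20 ± 1.42 in ChAT_negative cells (SD, n = 4 each). The difference of -1.09 (SE 0.89, limma adjusted p = 0.488) was smaller than the SD of either group, and both SDs include the low array 2. By a two-sided exact permutation test that did not use the replicate numbers, p was 0.40. With 4 against 4 arrays this test allows no p below 0.0286. The size of the difference depended on which arrays were used. It was -0.28 once ChAT_positive array 2 was left out and -1.79 once ChAT_negative array 2 was. Either way the low array 2 of the other group stayed in. Within numbers 1 to 4 the differences were -1.64, -1.42, -0.63 and -0.68. With both arrays numbered 2 left out, an alternative chosen after seeing the data, the difference between the groups was -0.98 (SE 0.22, limma adjusted p = 0.0508).

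The log2 signal of Lyz1 was 1.08, -1.78, 1.35 and 1.38 on ChAT_positive arrays 1 to 4, against 2.47, -0.21, 1.74 and 1.81 on ChAT_negative arrays 1 to 4. Array 2 was again the lowest of each group and array 1 the highest of the ChAT_negative group. The difference was -0.94 (SE 0.79, limma adjusted p = 0.50), from means of 0.51 ± 1.53 in ChAT_positive and 1.45 ± 1.16 in ChAT_negative cells (SD, n = 4 each). Leaving out ChAT_positive array 2 gave -0.18, and leaving out ChAT_negative array 2 gave -1.50. Either way the low array 2 of the other group stayed in. Within numbers 1 to 4 the differences were -1.38, -1.57, -0.39 and -0.43. The difference between the groups was -0.74 (SE 0.22, limma adjusted p = 0.112) without both arrays numbered 2. Neither lysozyme was called when any array, or both numbered 2, was left out. Without both arrays numbered 2 limma called 0 of the 7 tested members and 3.95% of all genes.

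Adgre1 encodes the surface glycoprotein that defines most mouse tissue macrophages, and it is also found on monocytes and eosinophils. It was the one tested member with a higher mean in ChAT_positive cells. The probe that stands for it had a log2 signal of 0.061, -0.85, 0.27 and -0.065 on ChAT_positive arrays 1 to 4, against -0.28, -1.52, -0.94 and -0.92 on ChAT_negative arrays 1 to 4. Array 2 was lowest in both groups, and ChAT_positive array 2 fell among the ChAT_negative values. The means were -0.15 ± 0.49 in ChAT_positive and -0.92 ± 0.51 in ChAT_negative cells (SD, n = 4 each), for a difference of 0.77 (SE 0.30, 95% interval 0.086 to 1.46). With a limma adjusted p of 0.158 and a two-sided exact permutation p of 0.0571, this did not pass. The gene's other probe gave 0.81 (SE 0.40) in a fit over all probes, with a limma adjusted p of 0.266. Without both arrays numbered 2 the difference was 0.80 (SE 0.21, limma adjusted p = 0.0825).

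Csf1r encodes the receptor for the growth factors CSF1 and interleukin 34, on which monocytes and macrophages depend for survival. Its 3 probes did not give the same picture. The probe that stands for the gene by the rule on brightness had 1.51, 1.85, 1.49 and 1.31 log2 signal on ChAT_positive arrays 1 to 4, against 1.83, 2.11, 1.54 and 1.81 on ChAT_negative arrays 1 to 4. Here array 2 was the highest of each group. Its log2 fold change was -0.29 (SE 0.16, limma adjusted p = 0.312). A further probe, also well above background on all 8 arrays, had 0.78, -2.65, -0.20 and -0.24 on ChAT_positive arrays, against 0.27, -2.10, -1.31 and -1.63 on ChAT_negative arrays. On that probe array 2 was the lowest of each group, and the difference was 0.62 (SE 0.75, limma adjusted p = 0.671). The remaining probe, well above background on 6 of 8 arrays and on neither array 2, gave 0.33 (SE 0.96, limma adjusted p = 0.876). A direction for Csf1r therefore depends on the probe. With its probes averaged the difference was 0.22 (SE 0.53). The probe sequences were not used here, so which transcript each probe reads was not tested.

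**Figure D2:**
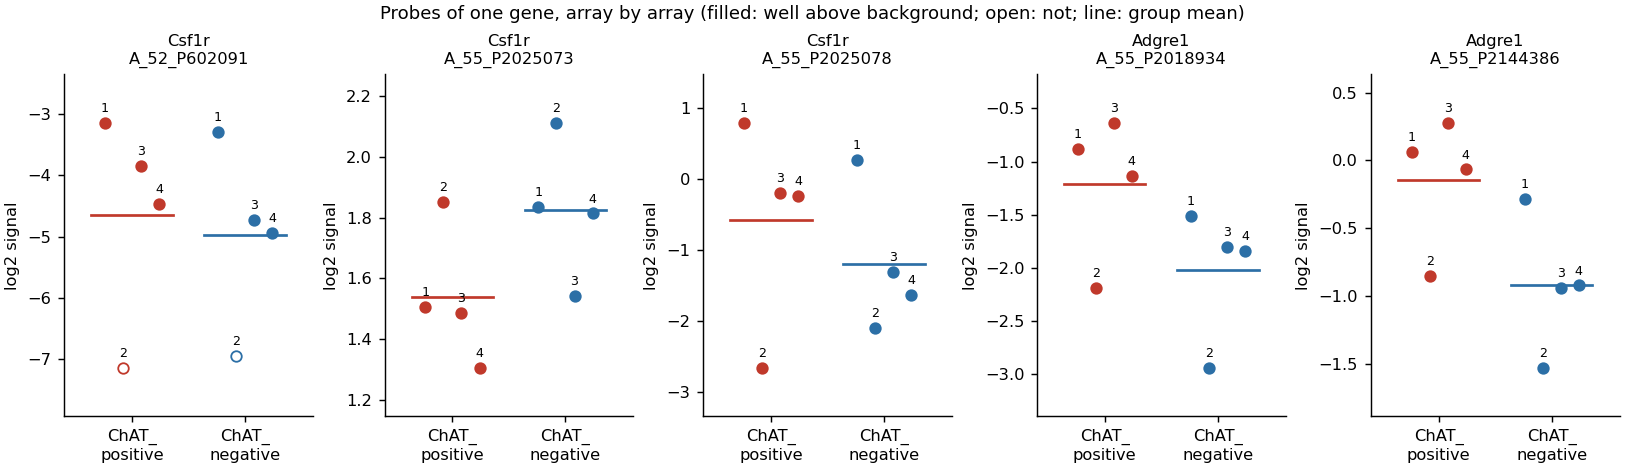
Log2 signal (y axis) of the 3 Csf1r probes and the 2 Adgre1 probes in ChAT_positive (red, left) and ChAT_negative arrays (blue, right), labelled with array numbers, with group means as lines. Open points are not well above background. Array 2 is the highest of each group on Csf1r probe A_55_P2025073 and the lowest on the other 4 probes shown.

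C1qa, C1qb and C1qc encode the 3 chains of C1q, the complement component that binds antibody complexes and dying cells and that spleen macrophages make in quantity. The genes follow one another on chromosome 4 with 0 other genes starting between them in the RefSeq table. All 3 had low signal. C1qa had a log2 signal of -3.68, -4.19, -4.82 and -3.33 on ChAT_positive arrays 1 to 4, against -3.01, -3.41, -3.37 and -3.06 on ChAT_negative arrays 1 to 4, and ChAT_positive array 3 was not well above background. The ChAT_negative arrays lay close together and 3 of the 4 ChAT_positive arrays lay below them. The means were -4.01 ± 0.65 in ChAT_positive and -3.21 ± 0.20 in ChAT_negative cells (SD, n = 4 each), and the difference of -0.79 (SE 0.29, 95% interval -1.46 to -0.13) did not pass (limma adjusted p = 0.14, two-sided exact permutation p = 0.0857). It was -0.52 without ChAT_positive replicate 3, and -0.38 with normexp background correction.

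C1qb had a log2 signal of -3.34, -3.86, -3.61 and -3.59 on ChAT_positive arrays 1 to 4, against -2.65, -3.59, -3.91 and -4.02 on ChAT_negative arrays 1 to 4, where array 1 was highest. The log2 fold change was -0.058 (SE 0.29, 95% interval -0.70 to 0.59, limma adjusted p = 0.924), and its sign turned when ChAT_positive array 2 (0.029) or ChAT_negative array 1 (0.24) was left out, and under 3 other scalings or corrections. C1qc was well above background on 0 of 8 arrays, at -7.12 to -6.54 in ChAT_positive and -7.59 to -5.77 in ChAT_negative cells, so no fold is given. ChAT_negative array 1 was the highest of all 8 arrays for C1qa and for C1qb. Whether the chains differed from each other between the groups was not tested.

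Vcam1 encodes the adhesion molecule that red pulp macrophages and spleen stroma display to cells with the integrin VLA-4. Its better measured probe passed the background flag on 2 ChAT_positive arrays (1 and 4) and 3 ChAT_negative arrays (1, 2 and 3). It had a log2 signal of -4.86, -5.79, -4.78 and -3.95 on ChAT_positive arrays 1 to 4, against -3.89, -4.38, -4.88 and -5.89 on ChAT_negative arrays 1 to 4, so the groups covered the same range. The log2 fold change was -0.086 (SE 0.48, 95% interval -1.16 to 0.99, limma adjusted p = 0.934), and its sign turned without ChAT_positive replicate 2 (0.23), ChAT_negative replicate 1 (0.21) or ChAT_negative replicate 2 (0.041). The other Vcam1 probe was well above background on 0 of 8 arrays. Its signals, -7.00 to -6.20 in ChAT_positive and -8.13 to -7.01 in ChAT_negative cells, did not overlap, and no fold is given for them.

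Cd5l encodes a protein of the scavenger receptor cysteine-rich family that spleen and liver macrophages secrete and that travels with IgM. Only ChAT_positive array 1, of all 8 arrays, showed it well above background. Its log2 signal was -4.15, -4.89, -4.78 and -5.94 on ChAT_positive arrays 1 to 4, against -5.47, -6.87, -5.98 and -7.31 on ChAT_negative arrays 1 to 4. The means were -4.94 ± 0.74 in ChAT_positive and -6.41 ± 0.83 in ChAT_negative cells (SD, n = 4 each), with ChAT_positive array 4 inside the ChAT_negative range. Since 7 of these 8 values were not well above background, no fold and no test are given.

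**Figure D3:**
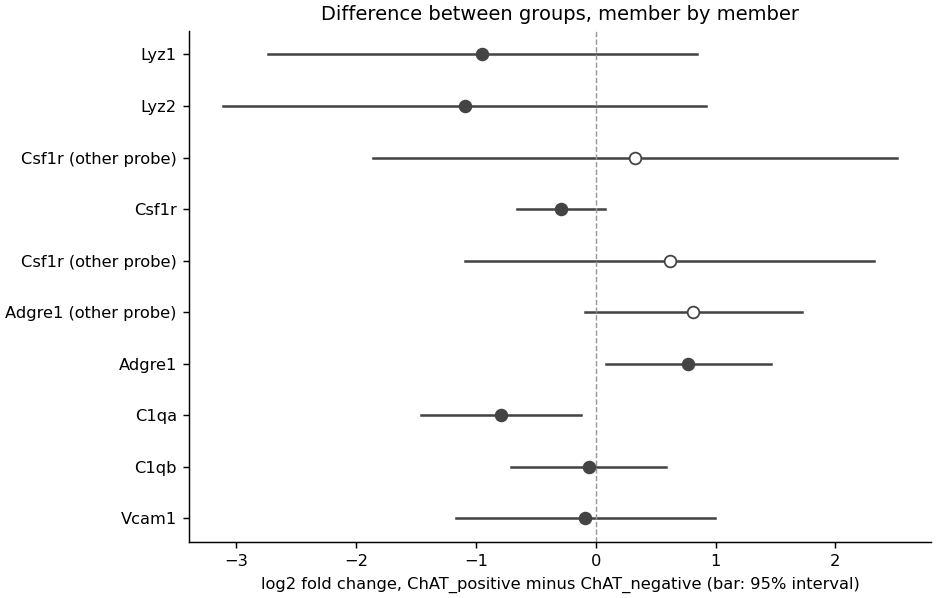
Log2 fold change (x axis, ChAT_positive minus ChAT_negative) of each member probe that passed the filter, with its 95% interval as a bar. Filled points stand for the gene and open points are its other probes. The intervals of Adgre1, at 0.77, and C1qa, at -0.79, exclude 0, and neither passes after adjustment over all genes.

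The arrays numbered 2 stood apart for the same members in both groups. Below the mean of the other 3 arrays of its group, array 2 lay at -3.24 log2 units for Lyz2 in ChAT_positive and at -2.80 in ChAT_negative cells. Lyz1 lay at -3.05 in ChAT_positive and -2.22 in ChAT_negative cells, and Adgre1 at -0.94 in ChAT_positive and -0.81 in ChAT_negative cells. For C1qa the gaps were -0.25 and -0.26, where the median over all genes was 0.072 in ChAT_positive and 0.015 in ChAT_negative cells. Vcam1 did not share the pattern, at -1.26 in ChAT_positive and 0.50 in ChAT_negative cells. Of the 7 tested members, Lyz1, Lyz2 and Adgre1 had array 2 lowest in both groups, as did 13.3% of all genes tested. On the probes that stand for their genes, a gap of more than 1 log2 unit in both groups was found for Lyz1 and Lyz2, as for 1.96% of all genes. By the sum of its gaps Lyz2 ranked 19 of 13608 from the lowest. The probe that stands for Csf1r lay at 0.42 in ChAT_positive and 0.38 in ChAT_negative cells. A further Csf1r probe lay at -2.77 and -1.21, and the remaining one, not well above background on either array 2, at -3.32 and -2.62. The other Adgre1 probe lay at -1.30 and -1.22. The gaps are given without a test, since the pattern was noticed in these data.

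**Figure D4:**
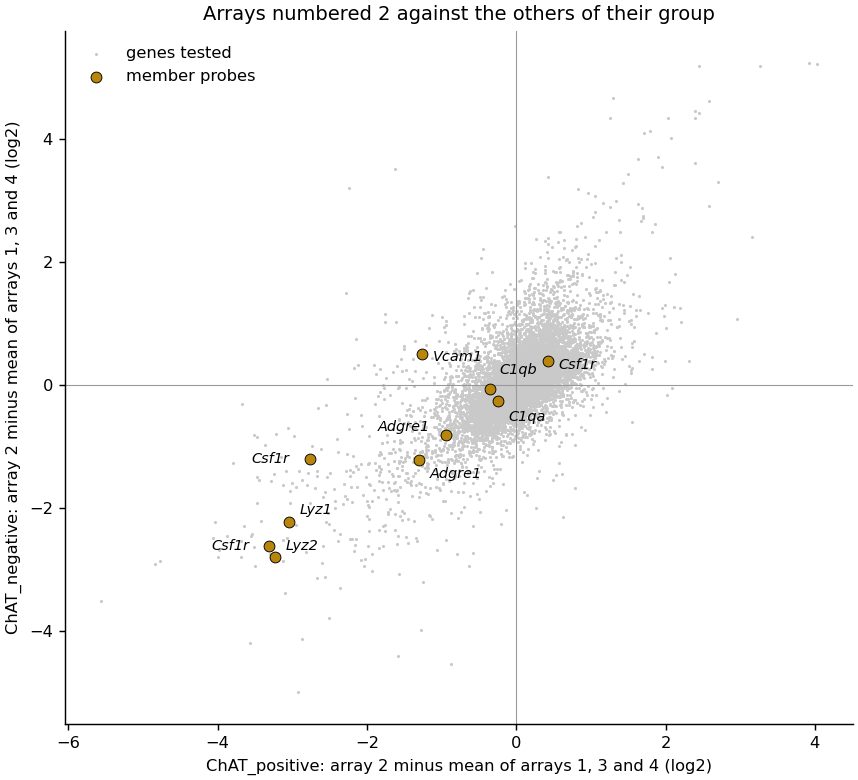
Log2 signal of array 2 minus the mean of arrays 1, 3 and 4 of its group, in ChAT_positive (x axis) and ChAT_negative cells (y axis), for all 13608 genes tested (grey) and the member probes that passed the filter (gold). Lyz1, Lyz2 and 2 Csf1r probes lie at the lower left, and the Csf1r probe that stands for the gene lies among the other genes.

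The genes whose signal followed Lyz2 most closely over the 8 arrays were Trem3, Hp, Amy2a5, Mrgpra2a and Pygl. Their Pearson correlations with Lyz2 lay between 0.974 and 0.984, as a description over 8 arrays that shared groups and slides. Trem3 is a receptor of myeloid cells and Hp encodes haptoglobin, which neutrophils also store. Hp had -0.81, -4.30, -0.011 and -0.12 log2 signal on ChAT_positive arrays 1 to 4, against 0.71, -1.86, 0.79 and 0.96 on ChAT_negative arrays 1 to 4. Fgfbp3, Pga5, Nrn1 and Trim65 were among the genes closest to the mean of the C1q chains, at 0.941 to 0.964. That mean includes C1qc, which was well above background on 0 of 8 arrays. C1qb correlated with it at 0.882, C1qa at 0.593 and Vcam1 at 0.613. Each of the named genes was highest on ChAT_negative array 1, so closeness to this mean is not closeness to each chain.

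Calls among genes that act beside the members are read against the 5.95% called of all genes, 2.81% higher and 3.15% lower. Of 14 tested monocyte genes, 1 rose and 0 fell, while by their means alone 7 lay higher and 7 lower. Ms4a6c, a tetraspan protein of monocytes, had a log2 signal of 2.24 ± 0.15 in ChAT_positive and 1.09 ± 0.55 in ChAT_negative cells (SD, n = 4 each), and so rose by 1.15 (SE 0.25, limma adjusted p = 0.0344). Of 11 tested red pulp macrophage genes, 0 rose and 1 fell: Trf, which encodes the iron carrier transferrin, by 1.01 on the log2 scale (SE 0.22, limma adjusted p = 0.0346). By their means alone 4 of the 11 lay higher and 7 lower, so Trf does not give a direction for the list. Cd163, Mrc1, Mertk and Hpgd of that list did not pass the filter on dim probes. Of 3 tested marginal zone macrophage genes limma called 0, and the scavenger receptor gene Marco and the phosphatidylserine receptor gene Timd4 were at 0.27 and -0.84, with 2 ChAT_positive arrays each passing the background flag. The median log2 fold changes of these lists were 0.11, -0.17 and 0.27, against 0.025 for all genes.

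Among 9 tested myeloid transcription factors, Maf rose by 0.59 (SE 0.15, limma adjusted p = 0.0488) and Cebpa, a factor of granulocyte and monocyte development, fell by 0.84 (SE 0.20, adjusted p = 0.0465). Of 9 tested ligands and partners of the CSF1 receptor limma called 0. In that list the adaptor gene Tyrobp, which NK cells also use, was at -0.69 (SE 0.19, adjusted p = 0.0654) and Plcg2 at 0.099. Of 19 tested complement genes 0 rose and 3 fell. The integrin gene Itgax fell by 1.31 (SE 0.17) and Lair1, an inhibitory collagen receptor that binds C1q, by 0.67 (SE 0.12). C5ar1, the receptor for the fragment C5a, was at least 1.55-fold lower (limma adjusted p = 0.0157). The filter let it in only through the 4 ChAT_negative arrays, with 0 ChAT_positive arrays passing the background flag, so that call is partly fixed by the filter. Of 22 tested lysosome genes 0 rose and 1 fell, the cholesterol transporter gene Npc1, by 0.77 (SE 0.16, limma adjusted p = 0.0294).

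Of 8 tested partners of VCAM1 limma called 0, and Itga4, a subunit of VLA-4, was at -0.047 (SE 0.11) and Itgb2 at -0.55 (SE 0.14, adjusted p = 0.0597). Of 7 tested relatives of Cd5l limma called 0, with Cd6 at 0.069 and Lgals3bp at -0.042. Of 2 tested relatives of Adgre1 and Cd68 limma called 0, with Adgre5, which encodes CD97, at -0.47 (SE 0.14, adjusted p = 0.0809) and Lamp3 at 0.21.

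Markers of several other cell types moved with the reporter groups, with the arrays numbered 2, or with both, and their part in the members' values was not tested. Over all genes 2.81% were called higher and 3.15% lower, and array 2 was lowest in both groups for 13.3%. Retnlg, Cd200r3, Clec9a and Plvap entered the test only through the ChAT_negative arrays, where they were high, so the counts that hold them are partly fixed by the filter. The level of a list is the sum of its tested genes' linear signals, in units of each array's 75th percentile. Such a sum mostly follows the brightest genes of its list. These were Csf3r (log2 fold change 0.025) for neutrophil, Siglech (-0.13) for dendritic cell and Car2 (-0.59) for erythroid markers. Neutrophil markers summed to 37.5 to 70.1 in ChAT_positive and 57.7 to 102 in ChAT_negative cells, 2 of 11 fell, and array 2 was lowest in both groups for 8 of 11. Retnlg was at least 3.63-fold lower and Cxcr2 fell by 0.96. Basophil and mast cell markers summed to 0.891 to 3.79 in ChAT_positive and 9.11 to 43.3 in ChAT_negative cells, 5 of 7 fell, and array 2 was lowest in both groups for 7 of 7. Mcpt8, a basophil protease gene, fell by 4.04 and Hdc by 2.41, and Cd200r3 was at least 15.2-fold lower. Platelet markers summed to 3.31 to 8.29 in ChAT_positive and 7.78 to 23.3 in ChAT_negative cells, 2 of 8 fell (Clec1b at -2.22 and Ppbp at -2.46), and array 2 was lowest in both groups for 8 of 8. Erythroid markers summed to 17.6 to 21.4 in ChAT_positive and 28.6 to 38.6 in ChAT_negative cells, and 3 of 6 fell, with log2 fold changes of -2.27 for Hba-a1, -2.03 for its close copy Hba-a2 and -0.59 for Car2.

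The counts of the remaining lists are read against the same shares of all genes: 2.81% called higher, 3.15% called lower and 13.3% with array 2 lowest in both groups. Dendritic cell markers overlapped, at 29.2 to 41.7 in ChAT_positive and 29.0 to 44.9 in ChAT_negative cells. Of 7 of them 2 fell, Itgax and Clec9a, the second at least 1.92-fold, and array 2 was lowest in both groups for 0. B cell markers summed to 85.1 to 110.1 in ChAT_positive and 59.7 to 76.2 in ChAT_negative cells, and 5 of 10 rose, among them Pax5 by 1.31, Ebf1 by 1.03 and Ms4a1 by 0.84. NK markers summed to 149 to 222 in ChAT_positive and 223 to 271 in ChAT_negative cells, 3 of 12 fell (Klrb1c, Klrk1 at -1.14 and Prf1 at -0.62), and array 2 was lowest in both groups for 0. T cell markers, at 18.1 to 32.4 in ChAT_positive and 19.6 to 29.6 in ChAT_negative cells, had 0 of 10 called by limma, with Cd3d at 0.057 and Cd28 at -0.57. Of 5 endothelial markers 1 fell, Plvap, at least 1.71-fold, and of 5 stromal markers 1 rose, Lum, by 2.05. Plvap and Clec9a passed the background flag on 0 ChAT_positive and 4 ChAT_negative arrays. Their calls, the only endothelial one among them, are thus partly fixed by the filter. The endothelial and stromal lists summed to 3.19 to 4.71 and 1.19 to 1.87 in ChAT_positive cells, and to 4.12 to 5.41 and 1.20 to 1.93 in ChAT_negative cells.

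**Figure D5:**
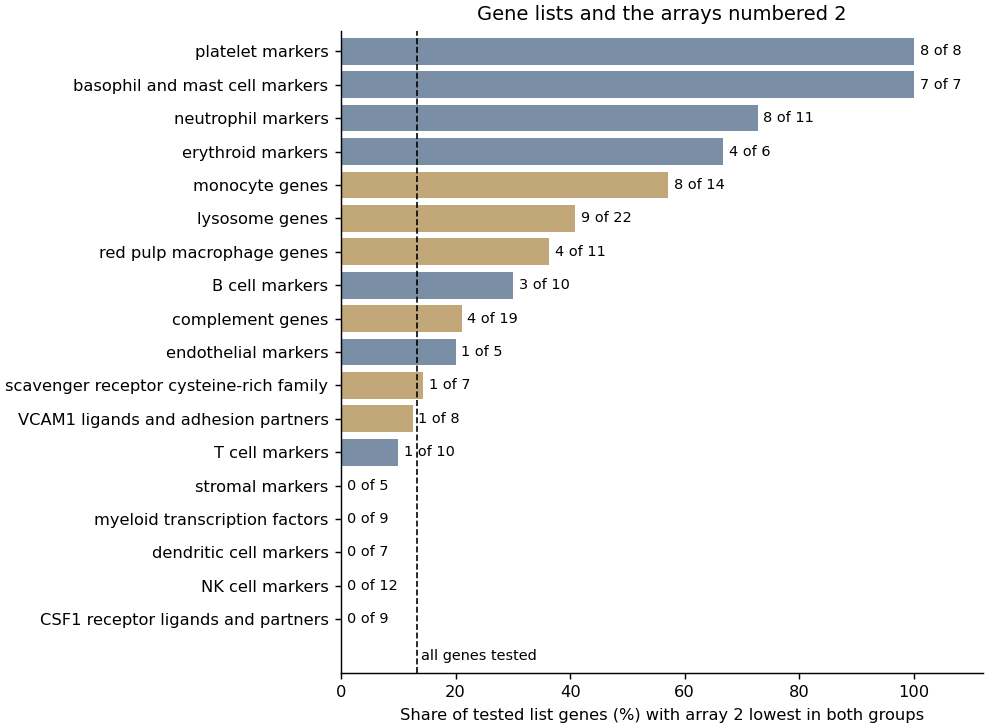
Share of each list's tested genes (x axis, %, with counts beside the bars) for which array 2 was the lowest array of both groups, for lists of 5 or more tested genes. Blue bars are cell type markers, tan bars are gene lists related to the members, and the dashed line is the 13.3% of all genes tested. Platelet and basophil and mast cell markers reach 8 of 8 and 7 of 7, monocyte genes 8 of 14 and NK cell markers 0 of 12.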

How the data were processed

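Per the labels' protocols, 100 ng total RNA of each pool of sorted NK cells was amplified and labelled with Cy3 for 8 one-colour arrays. The authors deposited spot intensity values from Agilent Feature Extraction (version 11.5.1.1 per the file headers), background-subtracted and not scaled between arrays. Their deposited table of log2 values, with column medians of -0.72 to -0.63, lies at the median within 0.0065 of the values used here, so its scale and centring are the same.

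Control and flagged outlier spots were left out, and spots of a probe were averaged. Of 55681 probes, 26762 had 1 symbol through unversioned accessions in RefSeq's GRCm38.p6 table. The array design is annotated on mm9, so no positions of genes or probes are given; the promoter windows are RefSeq's own. Log2 intensity minus the array's 75th percentile over probes was fitted with limma 3.58.1 in R 4.3.3 (two-sided, Benjamini-Hochberg over 13608 genes, no block). The fit was tried on simulated data in which arrays varied independently, so that trial does not bear on the choice of block. A probe had to pass the background flag on 4 of 8 arrays, and the brightest stood for its gene. No spot was saturated, and the number of arrays limits the precision. For a bound ("at least N-fold"), the dim group's signal on each array was raised to the lowest signal that passed the background flag, where it lay below.

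Members, lists and alternatives were chosen with earlier results of these data known. By rule all members are named, with Chat, Klrb1c and Ncr1, up to 3 called genes per list by adjusted p (otherwise its 2 brightest), and the 5 genes most like Lyz2 and the C1q mean, of which 1 is not reported here. Members are left out of the list counts. Since nothing says whether pools shared mice, the p-values cover only the spread between these arrays, part of which may be technical.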

Additional observations from a re-analysis of the deposited data

Results flagged for a closer look

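Among 26 sets of 4 arrays examined (13 member probes in each group), 2 held an array far from the others by Dixon's test, where chance gives about 1 in 20. Lyz1 had a log2 signal of -1.78 on ChAT_positive array 2, the lowest of its group, whose other arrays lay between 1.08 and 1.38. Lyz2 had -1.90 on ChAT_negative array 2, the lowest of its group, whose other arrays lay between 0.66 and 1.19.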

How the results depend on the processing

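Under 23 alternatives (22 for C1qa and Vcam1, which a filter at 8 of 8 arrays removes), Lyz1, Lyz2, Adgre1 and C1qa kept their direction, and with the exception of the replicate block no alternative called a member. Leaving out one array each gave 0.57 to 1.01 for Adgre1, -1.02 to -0.52 for C1qa, -1.50 to -0.18 for Lyz1, -1.79 to -0.28 for Lyz2, -0.39 to -0.19 for Csf1r, -0.22 to 0.24 for C1qb and -0.46 to 0.23 for Vcam1. C1qb turned to 0.16 under median scaling, 0.13 under quantile normalization, 0.0097 under normexp, 0.11 with array weights and 0.014 without both arrays numbered 2. Vcam1 turned to 0.13, 0.15, 0.22, 0.21 and 0.36 under the same 5. Csf1r turned to 0.22 with its probes averaged. Median scaling moved the median of all genes by 0.22. The causes were not tested.

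With the replicate number as a block, limma called 3 members lower, Lyz2 at -1.09 (adjusted p = 0.0114), Lyz1 at -0.94 (0.0267) and C1qa at -0.79 (0.0287), and 1 higher, Adgre1 at 0.77 (0.0184), and 2346 of all 13608 genes. Same-numbered arrays correlated in their deviations from the group means at 0.54, 0.66, 0.52 and 0.032 for numbers 1 to 4, and those numbered 1 to 3 correlated best with their own number while those numbered 4 did not. Whether the numbers pair the samples is thus not settled by these data, and the fit without the block was kept. The labels name no shared animal or day. Within numbers Lyz2 differed by -1.64, -1.42, -0.63 and -0.68 and Adgre1 by 0.35, 0.68, 1.21 and 0.85.

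The 810 genes called became 331 under median scaling, 224 with no filter on dim probes, 1216 with array weights, 538 with p adjusted over every probe, 1703 at an adjusted p under 0.10, 56 without both arrays numbered 3 (whose spike-in signal was the lowest of its group for 9 and 10 of 10 probes) and 537 without both numbered 2. Leaving out one array gave 210 to 708, with 351 without ChAT_positive replicate 1, 223 without 3 and 481 without 4, and 432 without ChAT_negative replicate 2, 374 without 3 and 210 without 4. C1qc, Cd5l, C1qa, both Vcam1 probes and the dimmest Csf1r probe lay near background, which limits the size of any difference there.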
